A study of Mus musculus with 8 samples.

Results

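The matrix proteases and their inhibitors described here are 45 protein-coding genes of the deposited mouse table: 22 matrix metalloproteinases (MMP), 19 ADAMTS proteases and 4 tissue inhibitors of metalloproteinases (TIMP). They are the rows whose gene symbol starts with Mmp, Timp or Adamts followed by a digit, out of 30387 genes in all. Of the 45 genes, 36 had a mean normalized count of 5 or more across the 8 libraries and were tested (16 MMP, 16 ADAMTS and 4 TIMP), and 9 did not. RNA-seq had been done on primary white adipocytes from epididymal fat, taken from wild-type littermates (WT) and from Ad-Yap/Taz-KO mice. Ad-Yap/Taz-KO mice carry floxed alleles of both Yap and Taz together with a Cre recombinase under the adiponectin promoter, so that both genes are deleted in adipocytes from their formation on and not in the other cells of the fat pad. Both genotypes had received normal chow (NC) or a high-fat diet (HFD) for 4 weeks, from week 5 of age by the labels, although the methods name a slightly later age. Each of the 4 groups holds 2 libraries.

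MMP and ADAMTS proteins are zinc-dependent proteases that act outside the cell or on its surface, and both are made as inactive proenzymes. MMPs cut collagens, elastin, basement membrane proteins and cell-surface proteins, whereas ADAMTS proteases trim procollagens or cut large proteoglycans such as versican and aggrecan. TIMPs occupy the active site of MMPs and of some ADAMTS proteases, and in fat the balance of these proteins sets how far the pericellular collagen mesh can be remodelled as adipocytes enlarge, vessels grow and macrophages enter.

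The table holds gene counts that were scaled by 1 size factor for each library and then rounded, called normalized counts here, and each library had between 14.0 and 22.3 M reads on genes. All differences are log2 fold changes of normalized counts plus a pseudocount of 1, given as value ± standard error (SE), from 1 limma fit over the 18800 tested genes with Benjamini-Hochberg adjustment. A gene was called where the adjusted p was 0.05 or lower and the log2 fold change was 0.59 or more, up or down, and higher, lower, rose and fell are written of called differences. Wwtr1, which encodes TAZ, was at 5594 and 4743 in WT on NC, 2441 and 1957 in Ad-Yap/Taz-KO on NC, 7121 and 6807 in WT on HFD, and 2060 and 2707 in Ad-Yap/Taz-KO on HFD normalized counts, and was lower in Ad-Yap/Taz-KO on NC (-1.24 ± 0.18, adjusted p = 0.000969) and on HFD (-1.56 ± 0.18, adjusted p = 3.11e-05). Yap1 was at 2776 and 2717 in WT on NC, 1669 and 1699 in Ad-Yap/Taz-KO on NC, 2468 and 2333 in WT on HFD, and 1549 and 2068 in Ad-Yap/Taz-KO on HFD, with -0.71 ± 0.16, adjusted p = 0.0238 on NC and -0.42 ± 0.16, adjusted p = 0.0591 on HFD, where it was not called. The 10 adipocyte markers examined, among them adiponectin, perilipin and leptin, were present in every library. Markers of endothelial cells, macrophages, fibroblasts and mural cells were present as well, so the libraries hold RNA of other cells of the fat pad. The 2 WT HFD libraries differed from each other by 4.74 to 5.87 times the squared difference that counting noise gives, at low and at high counts alike, whereas the other groups reached 25.8 to 82.8 times among genes of 1000 to 5000 normalized counts. The WT HFD libraries therefore show hardly any spread beyond that of weak genes, and whether they are independent mice cannot be told from the values. If they are not, the p-values of every comparison that uses them are too small. All comparisons share 1 estimate of each gene's spread, so the p-values of the other comparisons may be too small as well. Calls were therefore also made with the average of the WT HFD libraries as 1 sample, which ended some of them. The sample titles name a mouse for each library, and the study counts its RNA-seq replicates in mice. Which libraries share a litter or a day is not given in the sources used here.

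On HFD, 21 of the 36 tested proteases and inhibitors were called between the genotypes (32.2% of all tested genes were), 16 of them higher (17.1% of all genes) and 5 lower (15.1%). Their median log2 fold change was 1.33, against 0.09 over all tested genes. On NC, 6 of the 36 were called (4.71% of all genes), 3 higher (3.21%) and 3 lower (1.50%), with a median of -0.17 against -0.01. When the WT HFD libraries were averaged into 1 sample, 16 members were called on HFD, beside 18.3% of all tested genes. The 2 knockout comparisons share no library, but they share 1 estimate of each gene's spread, so their calls are not independent. All 6 genes called on NC were also called on HFD, in the same direction, which is 28.6% of the HFD calls. Without regard to the test, both Ad-Yap/Taz-KO libraries lay above both WT libraries for 19 of the 36 genes on HFD (36.5% of all genes) and below them for 7 (33.0%), and on NC above for 7 (22.8%) and below for 12 (22.2%). Over all genes, 641 of the 886 genes called on NC (72.3%) were called in the same direction on HFD, which is 10.6% of the HFD calls.

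**Figure D1:**
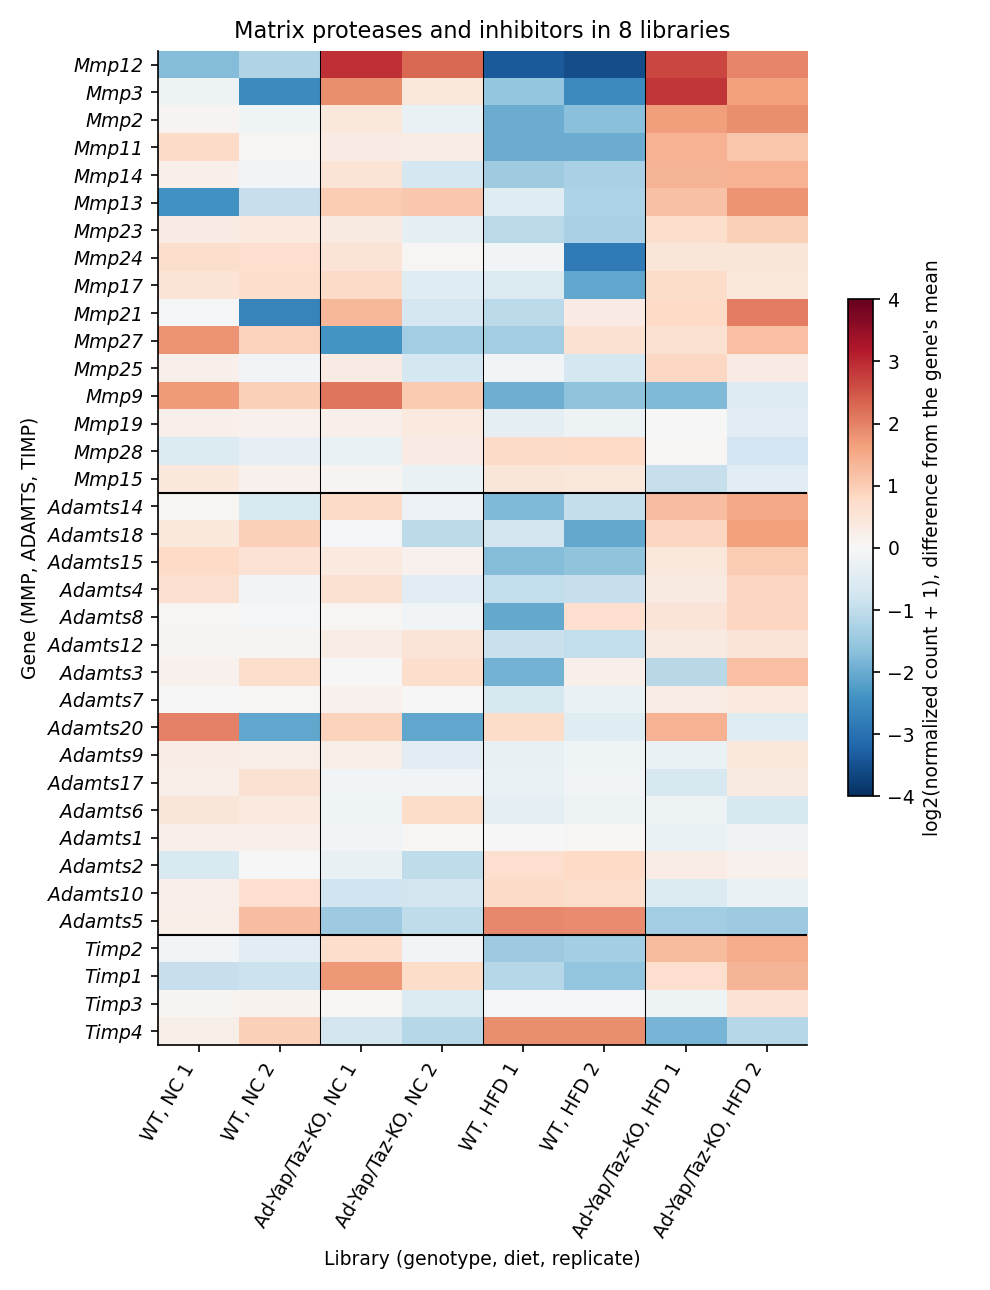
Log2 of normalized counts plus 1 of the 36 tested genes (rows, by family) in the 8 libraries (columns), as the difference from each gene's mean over the libraries. Blue cells mark low and red cells high values, and most MMPs are blue in both WT HFD libraries and red in both Ad-Yap/Taz-KO HFD libraries, while Adamts5 and Timp4 run the opposite way.

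Among the secreted MMPs, Mmp12, the macrophage metalloelastase, had the largest difference of the 36 genes. It was at 268 and 394 in WT on NC, 6782 and 4419 in Ad-Yap/Taz-KO on NC, 87 and 76 in WT on HFD, and 5782 and 3497 in Ad-Yap/Taz-KO on HFD normalized counts. All 4 Ad-Yap/Taz-KO libraries lay above all 4 WT libraries, and the knockout groups did not separate by diet. The log2 fold change between genotypes was 5.77 ± 0.27, adjusted p = 3.28e-08 on HFD and 4.07 ± 0.27, adjusted p = 2.64e-06 on NC. In WT, Mmp12 fell with HFD (-1.99 ± 0.27, adjusted p = 0.000739), and the effect of the knockout was larger on HFD than on NC (difference 1.70 ± 0.38, adjusted p = 0.0131). That difference was no longer called with the average of the WT HFD libraries as 1 sample.

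Mmp13, an interstitial collagenase, was at 6 and 19 in WT on NC, 75 and 79 in Ad-Yap/Taz-KO on NC, 26 and 15 in WT on HFD, and 83 and 130 in Ad-Yap/Taz-KO on HFD normalized counts. Every Ad-Yap/Taz-KO library again exceeded every WT library. The log2 fold change was 2.34 ± 0.60, adjusted p = 0.00924 on HFD and 2.72 ± 0.60, adjusted p = 0.0186 on NC, and the NC call ended when only the 2 NC groups were fitted. Without WT HFD library 2 or without Ad-Yap/Taz-KO HFD library 2 the HFD call ended too. Mmp3 (stromelysin-1), an activator of other pro-MMPs, was close to the limit of detection, at 4 and 0 in WT on NC, 20 and 7 in Ad-Yap/Taz-KO on NC, 1 and 0 in WT on HFD, and 41 and 17 in Ad-Yap/Taz-KO on HFD. The Ad-Yap/Taz-KO HFD libraries held 65 reads and the WT HFD libraries 1 read, a ratio of 56.0 with a 95% counting interval of 9.70 to 2245, which covers counting error only. On HFD the fit gave 4.28 ± 1.18, adjusted p = 0.0142, a call that ended with the WT HFD libraries averaged, and on NC it gave 2.54 ± 1.18, adjusted p = 0.298. The HFD value was 6.32 with a pseudocount of 0.1 and 2.04 with a pseudocount of 8.

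Most macrophage markers moved with these 3 genes between the genotypes. The 12 macrophage markers examined summed to between 6379 and 6422 normalized counts in WT on NC, 17680 and 30685 in Ad-Yap/Taz-KO on NC, 3656 and 3877 in WT on HFD, and 31417 and 33634 in Ad-Yap/Taz-KO on HFD. Of the 12 markers, 10 were higher in Ad-Yap/Taz-KO on HFD (17.1% of all tested genes) and 9 on NC (3.21%), and 9 fell with HFD in WT (9.22%). In bulk RNA, more cells of a type and more RNA per cell cannot be told apart, and the part of macrophage RNA in the protease results was not tested.

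**Figure D2:**
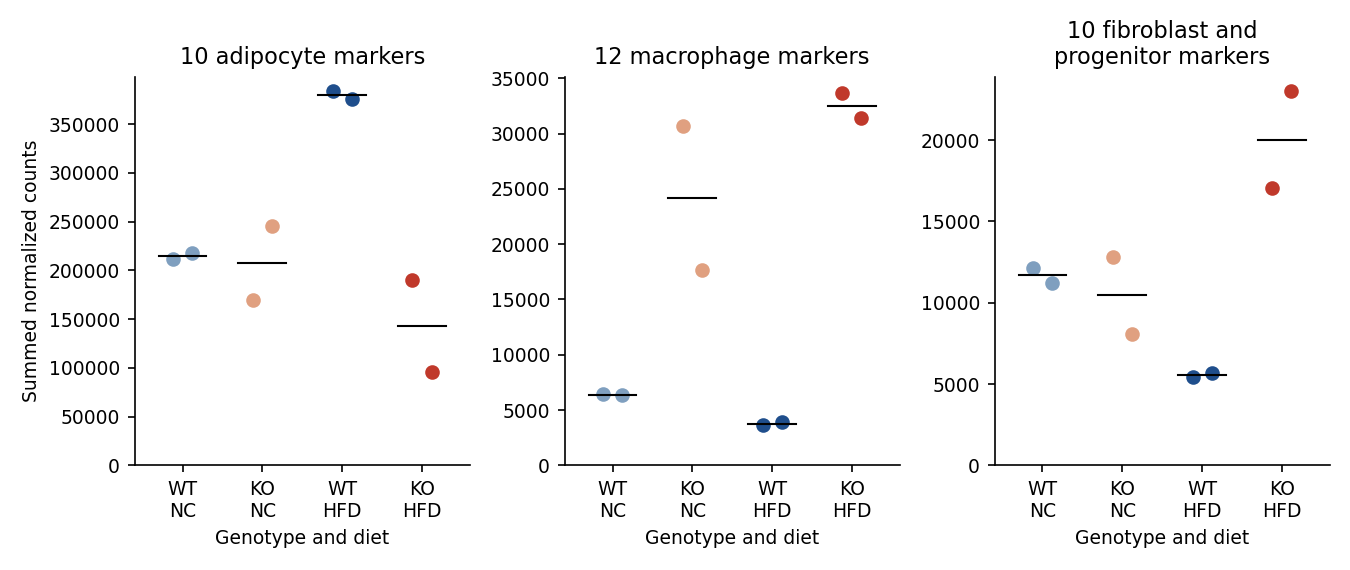
Summed normalized counts of 10 adipocyte, 12 macrophage and 10 fibroblast and progenitor markers in each library (points), with the mean of each group (line), for WT and Ad-Yap/Taz-KO (KO) on NC and HFD. Macrophage markers are high in both knockout groups, fibroblast and progenitor markers are lowest in WT on HFD and highest in the knockout on HFD, and adipocyte markers are highest in WT on HFD.

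Mmp12, Mmp13 and Mmp3 stand among 9 MMP genes within 427 kb of chromosome 9 (chr9:7272514-7699585, GRCm38), of which Mmp27 was the only other one tested. Promoter sequences of the RefSeq tables for GRCm38.p6 were at hand for 31 of the 45 genes, all 9 of this cluster among them. The AP-1 motif TGANTCA, bound by FOS and JUN dimers, was sought on both strands in the 250 bases before each start site, as RefSeq gives it. It was found at 7 of the 9 cluster genes, at 0 of the 22 genes elsewhere and at 7.82% of all 27025 genes with a promoter sequence. The 7 stretches are given 5′ to 3′ with the motif in capitals, because the same 7 letters, but for the middle one, stand before expressed and unexpressed members alike.
Mmp12: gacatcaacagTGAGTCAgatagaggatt
Mmp13: ccccaaagtggTGACTCAtcactatcatg
Mmp3: ggaagcaattaTGAGTCAgttttcgggtg
Mmp10: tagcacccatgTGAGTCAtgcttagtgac
Mmp1a: gttgtcaaccaTGAGTCAcatagcctctg
Mmp1b: gttacaaagccTGAGTCAtatagcctctg
Mmp7: aagtgtgcaaaTGAGTCAcctatttccac
The motif began 44 bases before the start of Mmp12 (chr9:7347319-7347347, plus strand), 35 before Mmp13 (chr9:7272468-7272496, plus) and 46 before Mmp3 (chr9:7445765-7445793, plus). For Mmp12 the RefSeq start lies inside the gene as GENCODE places it, from base 7344381 on. It began 63 bases before Mmp10 (chr9:7502268-7502296, plus), 73 before Mmp1a (chr9:7464057-7464085, plus), 93 before Mmp1b (chr9:7388102-7388130, minus) and 63 before Mmp7 (chr9:7692016-7692044, plus). These last 4 genes reached at most 7 normalized counts in any library, so the same letters stood before genes with and without measurable RNA. A match of letters is a description and does not show that a factor is bound. The exons of Mmp12 overlap those of Mmp1b on the opposite strand over 157 bases. The strand use of the counting is not given in the sources used here, and if strand was ignored, reads within these bases were left out for both genes, as reads over several genes were.

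Mmp2 and Mmp14 followed another course. Mmp2 (gelatinase A) cuts denatured collagen and basement membrane collagen, and Mmp14 is the membrane-anchored collagenase that activates pro-Mmp2 with the help of Timp2. Mmp2 was at 1240 and 1034 in WT on NC, 1557 and 969 in Ad-Yap/Taz-KO on NC, 294 and 365 in WT on HFD, and 3659 and 4228 in Ad-Yap/Taz-KO on HFD normalized counts. The NC groups overlapped, both WT HFD libraries were the lowest of the 8 and both Ad-Yap/Taz-KO HFD libraries the highest. The log2 fold change between genotypes was 3.58 ± 0.22, adjusted p = 2.48e-07 on HFD and 0.12 ± 0.22, adjusted p = 0.843 on NC, with a difference between the diets of 3.46 ± 0.31, adjusted p = 0.000438. With HFD, Mmp2 fell by 1.79 in WT (adjusted p = 0.000451) and rose by 1.68 in Ad-Yap/Taz-KO (adjusted p = 0.00594) on the log2 scale. When only the 2 knockout groups were fitted, the adjusted p of this rise was 0.136, and 0 of all tested genes were called (2059 had an unadjusted p below 0.05 in limma).

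For Mmp14 the values were 1173 and 936 in WT on NC, 1476 and 628 in Ad-Yap/Taz-KO on NC, 378 and 415 in WT on HFD, and 2587 and 2687 in Ad-Yap/Taz-KO on HFD normalized counts, again with both WT HFD libraries lowest and both Ad-Yap/Taz-KO HFD libraries highest. The difference between genotypes was 2.73 ± 0.30, adjusted p = 2.33e-05 on HFD and -0.12 ± 0.30, adjusted p = 0.883 on NC, and the difference of these effects 2.85 ± 0.42, adjusted p = 0.00292. Averaging the WT HFD libraries ended both the fall with HFD in WT (-1.40 ± 0.30, adjusted p = 0.00777) and the rise in Ad-Yap/Taz-KO (1.45 ± 0.30, adjusted p = 0.0396). Without Ad-Yap/Taz-KO NC library 2, the lower of the NC knockout libraries, that rise was 0.84.

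Mmp11 (stromelysin-3), made mainly by stromal cells, was at 93 and 57 in WT on NC, 69 and 67 in Ad-Yap/Taz-KO on NC, 13 and 13 in WT on HFD, and 146 and 119 in Ad-Yap/Taz-KO on HFD normalized counts. WT on HFD was again lowest and Ad-Yap/Taz-KO on HFD highest, with no overlap between them. Mmp11 differed between genotypes by 3.25 ± 0.43, adjusted p = 0.00011 on HFD and by -0.10 ± 0.43, adjusted p = 0.941 on NC. Mmp23, a membrane-linked MMP with a short catalytic chain, was at 202 and 212 in WT on NC, 205 and 126 in Ad-Yap/Taz-KO on NC, 75 and 64 in WT on HFD, and 259 and 314 in Ad-Yap/Taz-KO on HFD and differed by 2.03 ± 0.30, adjusted p = 0.000255 on HFD and -0.36 ± 0.30, adjusted p = 0.597 on NC. For both genes the fall with HFD in WT was called (-2.40 ± 0.43, adjusted p = 0.0035 for Mmp11 and -1.56 ± 0.30, adjusted p = 0.00467 for Mmp23), though for Mmp23 not with the WT HFD libraries averaged. Mmp17, anchored in the membrane by a lipid, was at 54 and 60 in WT on NC, 63 and 26 in Ad-Yap/Taz-KO on NC, 24 and 8 in WT on HFD, and 61 and 49 in Ad-Yap/Taz-KO on HFD, and its difference on HFD (1.89 ± 0.61, adjusted p = 0.0307) and its fall with HFD in WT (-1.95 ± 0.61, adjusted p = 0.0424) both ended under quantile normalization and with the WT HFD libraries averaged. Without WT HFD library 2, where it was lowest, the difference on HFD was 1.16 and the change with HFD in WT was -1.21.

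The sum of the 10 fibroblast and progenitor markers examined moved with this group of MMPs, but not every marker did. The markers summed to between 11215 and 12141 normalized counts in WT on NC, 8092 and 12829 in Ad-Yap/Taz-KO on NC, 5418 and 5657 in WT on HFD and 17032 and 23017 in Ad-Yap/Taz-KO on HFD. On HFD 7 of the 10 were higher in Ad-Yap/Taz-KO (17.1% of all tested genes), and 5 fell with HFD in WT (9.22%). Pi16, Dpp4 and Fap were not called between the genotypes on HFD. On NC 0 of the 10 were called by limma and 1 had an unadjusted p below 0.05. Their part in the results on Mmp2, Mmp14, Mmp11 and Mmp23 was not tested.

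**Figure D3:**
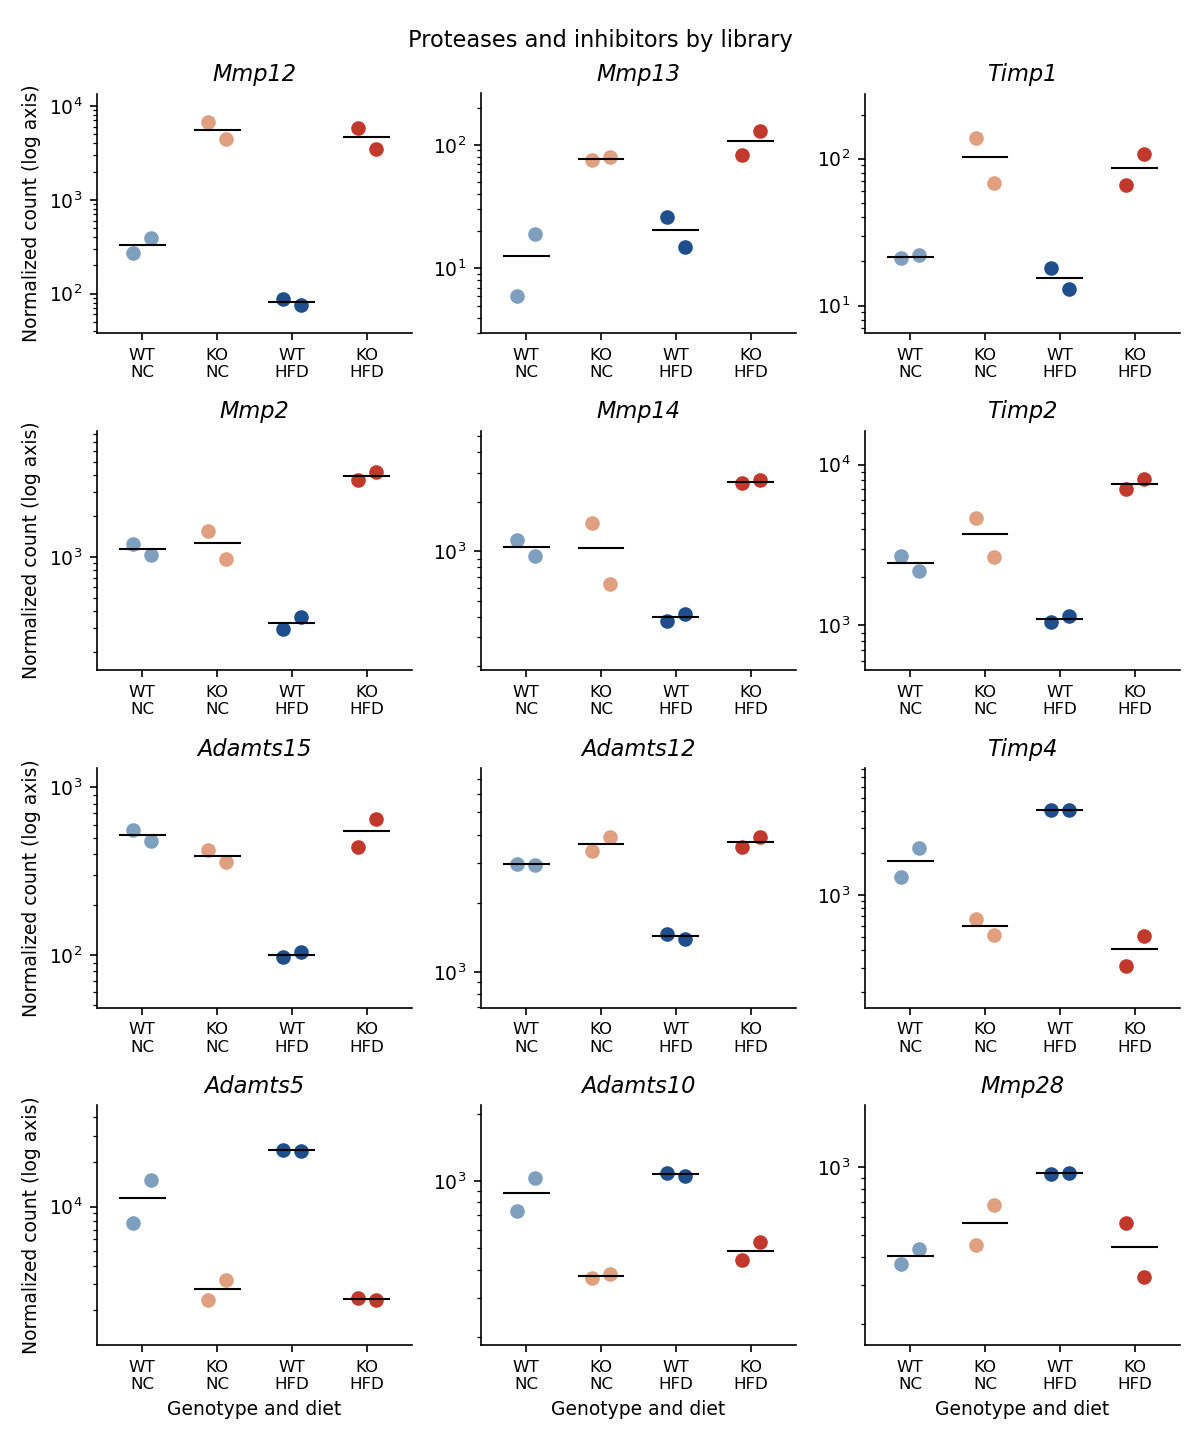
Normalized counts on a log axis of 12 proteases and inhibitors in each of the 8 libraries (points) with the mean of each group (line), for WT and Ad-Yap/Taz-KO (KO) on NC and HFD. Mmp12, Mmp13 and Timp1 are high in both knockout groups, Mmp2, Mmp14, Timp2, Adamts15 and Adamts12 are lowest in WT on HFD, and Timp4, Adamts5 and Adamts10 are low in both knockout groups.

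The remaining MMPs went other ways. Mmp28 (epilysin), a secreted MMP, was at 373 and 432 in WT on NC, 451 and 683 in Ad-Yap/Taz-KO on NC, 935 and 944 in WT on HFD, and 563 and 324 in Ad-Yap/Taz-KO on HFD normalized counts. It was highest in WT on HFD, and the libraries of the other groups lay between 324 and 683. Mmp28 was lower in Ad-Yap/Taz-KO on HFD (-1.14 ± 0.26, adjusted p = 0.00538), and it rose with HFD in WT (1.22 ± 0.26, adjusted p = 0.00849), but neither was called with the WT HFD libraries averaged. Without Ad-Yap/Taz-KO HFD library 2 the difference on HFD was -0.74. Mmp15, a membrane-type MMP, was at 358 and 304 in WT on NC, 288 and 221 in Ad-Yap/Taz-KO on NC, 374 and 369 in WT on HFD, and 142 and 196 in Ad-Yap/Taz-KO on HFD and was lower in Ad-Yap/Taz-KO on HFD (-1.15 ± 0.24, adjusted p = 0.00314), with -0.39 ± 0.24, adjusted p = 0.468 on NC. For these 2 genes, scaling all libraries to the same total moved the difference on HFD to -0.75 and -0.77.

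Mmp9 (gelatinase B), stored by neutrophils and made by macrophages, was the only MMP called between the diets and not between the genotypes. It was at 88 and 52 in WT on NC, 120 and 55 in Ad-Yap/Taz-KO on NC, 6 and 8 in WT on HFD, and 7 and 18 in Ad-Yap/Taz-KO on HFD normalized counts. All 4 HFD libraries lay below all 4 NC libraries. With HFD it fell in WT (-3.11 ± 0.66, adjusted p = 0.00787), a call that ended with the WT HFD libraries averaged, and in Ad-Yap/Taz-KO the value was -2.74 ± 0.66, adjusted p = 0.0695. The 8 neutrophil markers examined summed to only 12 to 92 normalized counts in a library. Mmp19, a widely expressed MMP, made up 41.9% and 43.9% of the summed MMP level per kb of exon in WT on NC and was not called in any comparison, at 2421 and 2348 in WT on NC, 2425 and 2715 in Ad-Yap/Taz-KO on NC, 1603 and 1825 in WT on HFD, and 2104 and 1574 in Ad-Yap/Taz-KO on HFD. Its exons share 22.3% of their bases with Tmem198b on the opposite strand. Mmp21, Mmp24, Mmp25 and Mmp27 were not called either, with 0 to 108 normalized counts. The untested MMPs, Mmp1a, Mmp1b, Mmp7, Mmp8, Mmp10 and Mmp16, reached at most 11 in any library.

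Adamts1, Adamts4, Adamts5, Adamts9 and Adamts15 belong to the ADAMTS proteases that cut versican and aggrecan. Adamts5 was at 7752 and 15120 in WT on NC, 2331 and 3189 in Ad-Yap/Taz-KO on NC, 24069 and 23763 in WT on HFD, and 2431 and 2345 in Ad-Yap/Taz-KO on HFD normalized counts. Both knockout groups lay below all 4 WT libraries, WT on HFD was highest, and the WT NC libraries lay far apart. Between genotypes the log2 fold change was -3.32 ± 0.25, adjusted p = 1.23e-06 on HFD and -1.99 ± 0.25, adjusted p = 0.000456 on NC. The rise with HFD in WT (1.14 ± 0.25, adjusted p = 0.00964) ended with the WT HFD libraries averaged and was 0.66 without WT NC library 1, and the difference between the effects on both diets (-1.33 ± 0.36, adjusted p = 0.0252) ended under 4 of the other settings and in 5 of the 8 fits without 1 library, and was -0.85 without WT NC library 1. Adamts1, which lies beside Adamts5 on chromosome 16 (chr16:85793827-85803113, against chr16:85858170-85901125), was at 21564 and 21585 in WT on NC, 17340 and 19368 in Ad-Yap/Taz-KO on NC, 18878 and 19472 in WT on HFD, and 15718 and 17025 in Ad-Yap/Taz-KO on HFD. Adamts1 was not called in any comparison (-0.23 ± 0.16, adjusted p = 0.283 on HFD, -0.24 ± 0.16, adjusted p = 0.495 on NC).

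Adamts4, induced by inflammatory cytokines in many tissues, was at 5676 and 3415 in WT on NC, 5532 and 2727 in Ad-Yap/Taz-KO on NC, 1825 and 1922 in WT on HFD, and 4631 and 6569 in Ad-Yap/Taz-KO on HFD normalized counts. The NC groups overlapped, and both WT HFD libraries were the lowest. On HFD it was higher in Ad-Yap/Taz-KO (1.56 ± 0.30, adjusted p = 0.00178) and on NC the value was -0.18 ± 0.30, adjusted p = 0.824. Its fall with HFD in WT (-1.23 ± 0.30, adjusted p = 0.0151) ended with the WT HFD libraries averaged and was -0.87 without WT NC library 1. Adamts15 was at 556 and 478 in WT on NC, 421 and 360 in Ad-Yap/Taz-KO on NC, 97 and 104 in WT on HFD, and 442 and 652 in Ad-Yap/Taz-KO on HFD, with WT on HFD lowest again and every other library between 360 and 652. Adamts15 differed between genotypes by 2.41 ± 0.23, adjusted p = 9.79e-06 on HFD and by -0.40 ± 0.23, adjusted p = 0.418 on NC, and fell with HFD in WT (-2.35 ± 0.23, adjusted p = 0.000127). Adamts9, another versican-cutting protease, had 6450 to 11873 normalized counts and was not called in any comparison, and neither were Adamts8, with 7 to 60, and Adamts20, with 0 to 16.

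Adamts2, Adamts3 and Adamts14 are procollagen N-proteinases. Adamts14 was at 148 and 92 in WT on NC, 239 and 118 in Ad-Yap/Taz-KO on NC, 40 and 72 in WT on HFD, and 327 and 398 in Ad-Yap/Taz-KO on HFD normalized counts. It was higher in both Ad-Yap/Taz-KO HFD libraries than in any other library, with 2.73 ± 0.40, adjusted p = 0.000262 between genotypes on HFD and 0.52 ± 0.40, adjusted p = 0.568 on NC. Adamts2, the main procollagen I N-proteinase, was at 1775 and 2657 in WT on NC, 2184 and 1340 in Ad-Yap/Taz-KO on NC, 4364 and 4757 in WT on HFD, and 3297 and 3079 in Ad-Yap/Taz-KO on HFD. In both genotypes its HFD libraries lay above its NC libraries. The rise in WT was called (1.07 ± 0.23, adjusted p = 0.00839) but ended with the WT HFD libraries averaged, and at the same total it was 0.66. In Ad-Yap/Taz-KO the diet difference of Adamts2 was 0.90 ± 0.23, adjusted p = 0.0835, and between genotypes it was -0.52 ± 0.23, adjusted p = 0.0996 on HFD. Adamts3 was not called, at 6 to 59 normalized counts.

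Adamts12 and Adamts7 cut cartilage oligomeric matrix protein. Adamts12 was at 2966 and 2952 in WT on NC, 3379 and 3912 in Ad-Yap/Taz-KO on NC, 1468 and 1392 in WT on HFD, and 3524 and 3906 in Ad-Yap/Taz-KO on HFD normalized counts, with replicates close together in every group. WT on HFD stood apart as the lowest. Its difference was 1.38 ± 0.15, adjusted p = 1.97e-05 on HFD and 0.30 ± 0.15, adjusted p = 0.325 on NC, and it fell with HFD in WT (-1.05 ± 0.15, adjusted p = 0.000813). Adamts7, at 218 and 226 in WT on NC, 245 and 213 in Ad-Yap/Taz-KO on NC, 139 and 180 in WT on HFD, and 265 and 287 in Ad-Yap/Taz-KO on HFD, differed by 0.80 ± 0.24, adjusted p = 0.0219 on HFD, which ended with the WT HFD libraries averaged.

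Adamts10, which binds fibrillin-1 and promotes microfibril assembly, was at 733 and 1032 in WT on NC, 368 and 382 in Ad-Yap/Taz-KO on NC, 1088 and 1052 in WT on HFD, and 442 and 530 in Ad-Yap/Taz-KO on HFD normalized counts. Like Adamts5 it was lower in every Ad-Yap/Taz-KO library than in every WT library, but by nearly the same amount on both diets (-1.14 ± 0.20, adjusted p = 0.000833 on HFD and -1.21 ± 0.20, adjusted p = 0.00261 on NC). The difference between these effects was 0.07 ± 0.28, adjusted p = 0.887. The NC call ended without WT NC library 2, and at the same total the HFD value was -0.76. Adamts18, at 10 and 15 in WT on NC, 7 and 3 in Ad-Yap/Taz-KO on NC, 4 and 1 in WT on HFD, and 14 and 25 in Ad-Yap/Taz-KO on HFD, differed by 2.64 ± 0.96, adjusted p = 0.0481 on HFD and lost that call under 6 of the other settings, among them the average of the WT HFD libraries. Its value was 1.37 with a pseudocount of 8 and 1.47 under quantile normalization. Adamts6 and Adamts17 were not called, with 21 to 142 normalized counts, and the untested Adamts13, Adamts16 and Adamts19 reached at most 8 in any library.

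All 4 inhibitors were measured, and they went 3 ways. Timp1, a secreted inhibitor that many cells make on inflammatory stimulation, was at 21 and 22 in WT on NC, 139 and 68 in Ad-Yap/Taz-KO on NC, 18 and 13 in WT on HFD, and 66 and 107 in Ad-Yap/Taz-KO on HFD normalized counts. Every Ad-Yap/Taz-KO library exceeded every WT library, and the diets overlapped within the knockout. The difference was 2.38 ± 0.52, adjusted p = 0.00383 on HFD and 2.13 ± 0.52, adjusted p = 0.0351 on NC. The HFD call ended without Ad-Yap/Taz-KO HFD library 2, and the NC call ended at the same total, with no filter on low values, when only the NC groups were fitted and with the replicate number as a block.

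Timp1 was also one of 2 among the 31 genes with a promoter sequence whose 250 bases before the start hold GGAATG on either strand, the core of the motif of TEAD factors, through which YAP and TAZ reach DNA. The other was Adamts13, and 14.4% of all genes hold it. The stretch is shown because Timp1 is the only called gene that has it among the 25 tested genes with a promoter sequence. The motif is in capitals, on the plus strand of the X chromosome (chrX:20869916-20869935, GRCm38.p6), and it began 247 bases before the start.
Timp1: acaGGAATGcctttcttgtg
These letters alone do not show binding, and their absence from the other windows says nothing about the factor.

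Timp2, which both inhibits Mmp2 and links its proenzyme to Mmp14, was at 2690 and 2187 in WT on NC, 4684 and 2678 in Ad-Yap/Taz-KO on NC, 1049 and 1140 in WT on HFD, and 7005 and 8111 in Ad-Yap/Taz-KO on HFD normalized counts. Both Ad-Yap/Taz-KO HFD libraries were highest and both WT HFD libraries lowest. Timp2 differed between genotypes by 2.78 ± 0.22, adjusted p = 1.93e-06 on HFD and by 0.55 ± 0.22, adjusted p = 0.23 on NC, and these effects differed by 2.24 ± 0.32, adjusted p = 0.00275. With HFD it fell in WT (-1.15 ± 0.22, adjusted p = 0.00534) and rose in Ad-Yap/Taz-KO (1.09 ± 0.22, adjusted p = 0.0405), and both of these calls ended with the WT HFD libraries averaged. Without Ad-Yap/Taz-KO NC library 2 the rise was 0.69.

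Timp4, an inhibitor with a narrow tissue range that includes fat, was at 1334 and 2176 in WT on NC, 674 and 511 in Ad-Yap/Taz-KO on NC, 4078 and 4050 in WT on HFD, and 309 and 506 in Ad-Yap/Taz-KO on HFD normalized counts. It ran opposite to Timp2: WT on HFD was highest, and all 4 Ad-Yap/Taz-KO libraries were below all WT libraries. Between genotypes it differed by -3.36 ± 0.26, adjusted p = 1.48e-06 on HFD and by -1.54 ± 0.26, adjusted p = 0.00345 on NC, and the difference of the effects was -1.82 ± 0.37, adjusted p = 0.00896. That difference and the rise with HFD in WT (1.25 ± 0.26, adjusted p = 0.00722) ended with the WT HFD libraries averaged, and the NC call ended without WT NC library 2. Timp3, the inhibitor that stays bound to the matrix, was at 5957 and 6153 in WT on NC, 5726 and 3835 in Ad-Yap/Taz-KO on NC, 5402 and 5299 in WT on HFD, and 4847 and 8358 in Ad-Yap/Taz-KO on HFD, overlapped between genotypes on HFD and was not called in any comparison (0.25 ± 0.24, adjusted p = 0.443 on HFD). Its exons share 21.3% of their bases with Syn3 on the opposite strand. Exons of Mmp11, Mmp24, Mmp28, Adamts4, Adamts7, Adamts8, Adamts9 and Timp4 overlap genes on the opposite strand over 1.53% to 13.6% of their bases, and reads within such bases were left out if the counting ignored strand.

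Most adipocyte markers were lower together with Timp4, Adamts5 and Adamts10 on HFD. The 10 adipocyte markers summed to between 211752 and 218344 normalized counts in WT on NC, 169777 and 245934 in Ad-Yap/Taz-KO on NC, 375938 and 384146 in WT on HFD and 95513 and 190080 in Ad-Yap/Taz-KO on HFD. Of the 10, 9 were lower in Ad-Yap/Taz-KO on HFD (15.1% of all tested genes). On NC 0 of the 10 were called by limma and 0 had an unadjusted p below 0.05, with a list median of -0.10. The part of adipocyte RNA in the results on either diet was not tested.

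Dividing by the kb of all annotated exons of a gene sets genes beside each other only roughly. That length, 888 bases for Timp1 and 5894 for Timp4, can exceed that of the transcripts present. Shares and sums over genes depend on it. On this scale the makeup of the inhibitors turned over between the HFD groups. Timp4 made up 42.1% and 41.8% of the summed TIMP level in the WT HFD libraries, but 2.08% and 2.59% in the HFD libraries of Ad-Yap/Taz-KO. Timp2 made up 16.4% and 17.8% in WT on HFD, and 71.4% and 62.8% with the knockout. On NC the shares of Timp2 lay between these, with 41.3% and 32.8% for WT and 55.2% and 52.0% for Ad-Yap/Taz-KO. The 4 groups did not overlap for either inhibitor.

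**Figure D4:**
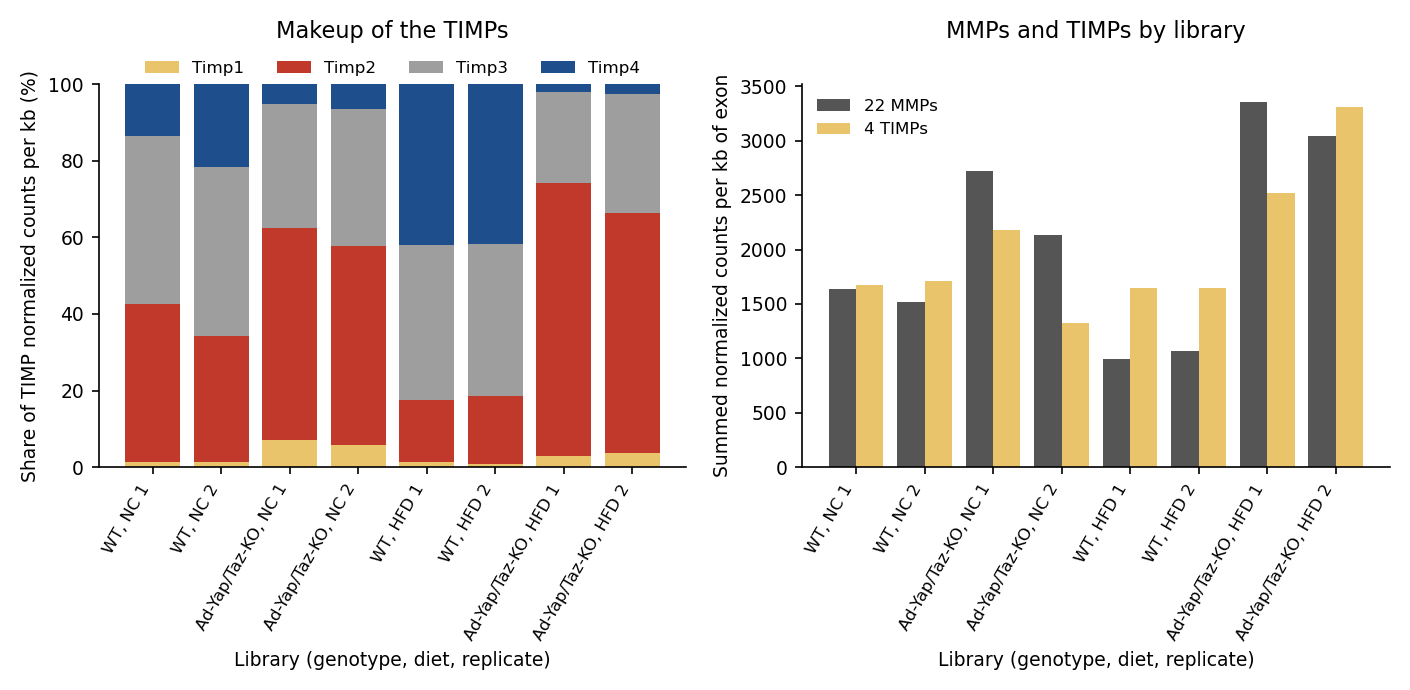
Left, share of each inhibitor in the summed TIMP normalized counts per kb of exon, in percent, by library. Right, summed normalized counts per kb of exon of the 22 MMPs and of the 4 TIMPs by library. Timp4 fills 41.8% to 42.1% of the bars of WT on HFD and 2.08% to 2.59% of those of Ad-Yap/Taz-KO on HFD. On this scale, which depends on the exon lengths used, MMPs exceed TIMPs in 3 of the 4 knockout libraries and in none of the WT libraries.

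The summed MMP level was 995 and 1071 normalized counts per kb in WT on HFD, 3353 and 3042 in Ad-Yap/Taz-KO on HFD, 1637 and 1514 in WT on NC and 2726 and 2133 in Ad-Yap/Taz-KO on NC. Divided by the summed TIMP level of the same library, it gave a ratio of 0.605 and 0.651 in WT on HFD, 1.33 and 0.918 in Ad-Yap/Taz-KO on HFD, 0.979 and 0.885 in WT on NC and 1.25 and 1.61 in Ad-Yap/Taz-KO on NC. Both WT HFD libraries had the lowest ratio, and the Ad-Yap/Taz-KO HFD libraries overlapped both NC groups. No test was run on the ratio, which depends on the exon lengths used. It sets RNA beside RNA and does not measure inhibitor protein or protease activity. Mmp12 alone made up 1.21% and 0.980% of the MMP level in WT on HFD, 23.8% and 15.9% in Ad-Yap/Taz-KO on HFD and 34.4% and 28.6% in Ad-Yap/Taz-KO on NC. Among the ADAMTS proteases, Adamts1 held 47.8% to 65.0% in every library, whereas Adamts5 held at least 28.8% in WT on HFD and at most 4.06% in Ad-Yap/Taz-KO on HFD.

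Between diets, WT and Ad-Yap/Taz-KO differed. In WT, 15 of the 36 genes were called between HFD and NC (18.0% of all tested genes), 4 higher (8.74%) and 11 lower (9.22%), with a median of -0.68 against -0.08 over all genes. Both HFD libraries lay above both NC libraries for 6 (31.4%) and below them for 23 (33.6%). The 11 that fell with HFD were Mmp2, Mmp9, Mmp11, Mmp12, Mmp14, Mmp17, Mmp23, Adamts4, Adamts12, Adamts15 and Timp2, and the 4 that rose were Mmp28, Adamts2, Adamts5 and Timp4. Scaled to the same total, 2 rose and 17 fell, and all tested genes then shifted by -0.41 at the median. When the WT HFD libraries were averaged into 1 sample, 5 were called, beside 2.87% of all tested genes. Without WT NC library 1, 4 were called (3.34% of all genes), without WT HFD library 1 there were 8 (5.59%) and without WT HFD library 2 there were 6 (4.19%). In Ad-Yap/Taz-KO, 3 genes were called between the diets, Mmp2, Mmp14 and Timp2, all higher on HFD (1.07% of all tested genes were called, 0.383% higher on HFD), with a median of 0.42 against 0.03. In this genotype both HFD libraries lay above both NC libraries for 14 (22.7%) and below them for 6 (19.3%). None of the 3, nor any other tested gene, was called by limma when only the 2 knockout groups were fitted, where 9 members and 2059 of all genes had an unadjusted p below 0.05. Of the markers in WT, 9 of 12 macrophage, 5 of 10 fibroblast and progenitor and 4 of 8 endothelial ones fell with HFD. Of 10 adipocyte markers 2 rose with HFD in WT, and of 7 mural markers 2 rose and 2 fell. Their part in the diet results was not tested.

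The knockout effect was not the same on both diets for 13 of the 36 genes (17.4% of all tested genes). It was more positive on HFD for 10 (8.69% of all genes), Mmp2, Mmp11, Mmp12, Mmp14, Mmp23, Adamts4, Adamts12, Adamts14, Adamts15 and Timp2, and more negative for 3 (8.73%), Mmp28, Adamts5 and Timp4. When the WT HFD libraries were averaged into 1 sample, 6 were called, beside 2.75% of all tested genes. The interaction, the HFD comparison and the WT diet comparison use the same WT HFD libraries, so their calls are not independent of each other.

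**Figure D5:**
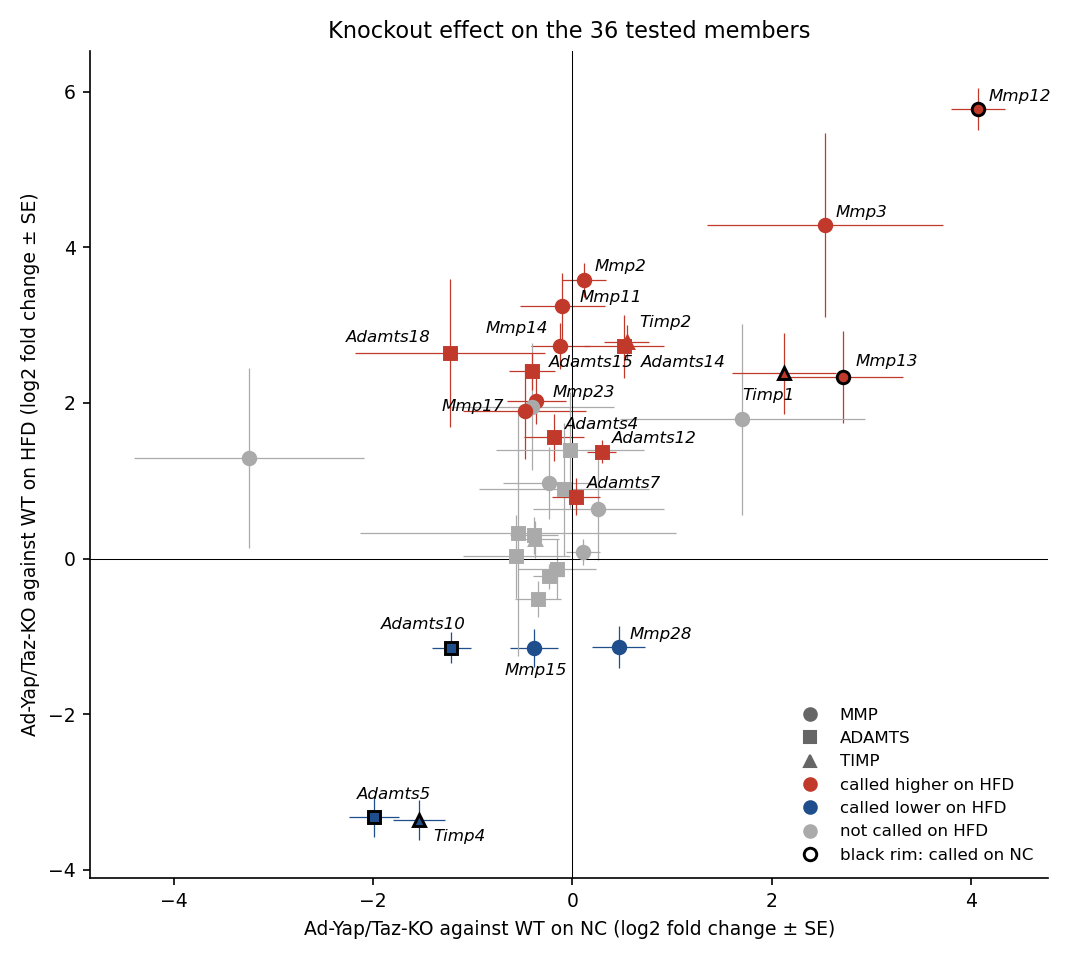
Log2 fold change between Ad-Yap/Taz-KO and WT on HFD (vertical) against that on NC (horizontal) for the 36 tested genes, each point with its SE and the marker shape giving the family. The 6 genes with a black rim, called on NC, lie toward the upper right and lower left, and a column of red points near 0 on NC holds Mmp2, Mmp11, Mmp14 and most of the ADAMTS proteases that were higher on HFD, with Adamts18 further left at -1.23.

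Lists of genes that act with these proteases were counted in the same fit, and their median log2 fold changes on HFD are given beside that of all tested genes, 0.09. Of all tested genes, 17.1% were called higher and 15.1% lower on HFD, and 3.21% higher and 1.50% lower on NC, and with few genes in a list 1 or 2 calls each way lie near these shares on HFD. Of 6 tested genes of the plasminogen system, which activates several pro-MMPs, 4 were higher in Ad-Yap/Taz-KO on HFD (median 2.21). Plau, the urokinase gene, differed by 3.07 ± 0.19, adjusted p = 2.73e-07, Plaur, its receptor, by 2.33 and Serpinf2, an inhibitor of plasmin, by 2.64. On NC 2 of the 6 were called, Plau (1.41) and Plaur (0.82), both higher. Of the 4 proprotein convertases, which remove the propeptides of membrane-type MMPs and ADAMTS proteases (median 0.03), Furin was higher (0.83 ± 0.17, adjusted p = 0.00249) and Pcsk6 lower (-2.67 ± 0.22, adjusted p = 2.09e-06) on HFD. On NC 0 of the 4 were called by limma and 1 had an unadjusted p below 0.05.

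Of 8 regulators at the cell surface and in the matrix, 2 were higher and 2 lower on HFD (median 0.48) and 1 was higher on NC. Cd44, a hyaluronan receptor that holds Mmp9 and Mmp14 at the surface, was higher on both diets (3.30 on HFD and 2.40 on NC), and Bsg, the inducer of MMPs also called EMMPRIN, was lower on HFD (-0.78), as was the tetraspanin Cd151 (-1.26). Of 6 ADAMTS-like proteins, which resemble ADAMTS proteases but lack the protease domain, 3 were higher and 1 lower on HFD (median 1.16) and 1 was lower on NC. Adamtsl1 (2.25), Thsd4 (2.19) and Adamtsl5 (1.85) were higher and Adamtsl2 (-2.16) lower on HFD, and Adamtsl4 was lower on NC (-0.77).

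ADAM proteases, the membrane-bound relatives that shed cell-surface proteins, had 5 of 9 members higher and none lower on HFD (median 0.77), with 7 at an unadjusted p below 0.05 in limma, and 3 higher on NC. Adam8, carried by myeloid cells, was higher on both diets (5.55 on HFD and 4.14 on NC). Of 9 cathepsins and cystatins, lysosomal proteases and their inhibitors, 4 were higher and 1 lower on HFD (median 0.87), and 6 were higher on NC. Ctss, the cathepsin of antigen-presenting cells, differed by 4.92 on HFD and 3.66 on NC, Ctsk, a collagen-cutting cathepsin, by 3.26 and 1.53, and Cst3, the secreted inhibitor cystatin C, was lower on HFD (-0.73). Of 9 astacin-type and serine matrix proteases, 3 were higher and 2 lower on HFD (median 0.29), and 2 were lower on NC, with Htra3 (-1.92 on HFD and -0.67 on NC) and Htra1 (-1.21 and -0.79) lower on both diets.

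Of 14 matrix substrates, 10 were higher and 2 lower in Ad-Yap/Taz-KO on HFD (median 1.48). Lum (2.57), Col1a2 (2.27) and Col1a1 (2.17), which encode lumican and the chains of collagen I, had the largest positive differences, and Ncan (-5.08) and Col4a1 (-0.67) were lower. On NC 0 of the 14 were called by limma and 6 had an unadjusted p below 0.05. Lum and Dcn stand both here and among the fibroblast and progenitor markers, as do Fap and Dpp4 of the serine proteases, and Cd63 of the regulators is also a marker of lipid-associated macrophages. The genes named from these lists have the largest differences among those called.

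The other marker lists were counted in the same way on HFD, where 17.1% of all tested genes were called higher and 15.1% lower. All 10 markers of lipid-associated macrophages were higher in Ad-Yap/Taz-KO (median 3.53), and 9 of the 10 on NC (3.21% of all tested genes). Higher on HFD were also 3 of 8 endothelial, 2 of 7 mural, 1 of 8 mesothelial, 2 of 4 lymphocyte, 3 of 4 mast cell and 1 of 3 neutrophil markers, and 2 mural and 1 mesothelial markers were lower. On NC 0 markers of these 6 lists were called by limma, and 5 endothelial, 3 mural and 1 mast cell markers had an unadjusted p below 0.05. No marker of any list was at 0 in all libraries.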

How the data were processed

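RNA of isolated epididymal white adipocytes was measured by RNA-seq in 8 libraries, 2 for each of WT and Ad-Yap/Taz-KO on NC and HFD, grouped by the sample labels. The authors depleted ribosomal RNA, checked reads with FastQC, trimmed them with Reaper, aligned them to GRCm38 (mm10) with STAR 2.5.2b and counted reads on exons with featureCounts 1.5.1, leaving out reads over several genes or places, and used DESeq2 1.14.1. The deposited values count as a score, because the authors scaled each library's counts by 1 size factor and rounded them, so neither DESeq2 nor edgeR was run on them here. One read is worth 0.795 to 1.135 of these units, estimated from the spacing of low values, and the depth was 14.0 to 22.3 M reads on genes. Intervals cover counting error only, since reads carry no molecular identifiers.

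Genes with a mean of at least 5 (18800 of 30387) were fitted with limma 3.58.1 in R 4.3.3 (lmFit, contrasts.fit, and a trend in eBayes), using log2(value + 1) and 4 group means (degrees of freedom 4 residual, 8.59 prior). Contrasts compared the genotypes on each diet, diet in each genotype and their interaction, adjusted by the Benjamini-Hochberg method. On simulated data with 200 changed genes of mixed fold sizes, 144 were called, 0 of them in the wrong direction, beside 8 unchanged genes, and 0 were called with no change. The simulation gave all groups the same spread and changed genes in a single group. It therefore does not show how calls fare with the unequal spread of these groups. Per-kb levels used the union of exons in the GENCODE annotation of GRCm38, in which 30259 of the identifiers and all 45 members were found. Promoters came from the RefSeq tables of GRCm38.p6. Members with a mean of at least 5 are named, those called get every library's value, and from other lists up to 3 called genes with the largest rise and fall are named. The members and lists were chosen with earlier results of these data known. One gene of the plasminogen list is not reported here. Alternatives were a pseudocount of 0.1 or 8, no filter or a mean of at least 50, 3 scalings, only the groups compared, a replicate block, no fold limit, averaging the WT HFD libraries into 1 sample, and leaving out each library. A crossed replicate block was added after seeing the data. Python 3.11.15 and matplotlib 3.10.9 were used for tables and figures.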

Additional observations from a re-analysis of the deposited data

Results flagged for a closer look

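The effect of the knockout on HFD differed from that on NC for 13 of the 36 tested proteases and inhibitors, by the interaction term of the limma fit. These differences on the log2 scale are the flagged results. Of all tested genes 17.4% were called in the interaction, 8.69% in the positive and 8.73% in the negative direction. The effect was more positive on HFD for Mmp2 (3.46, adjusted p = 0.000438), Mmp11 (3.34, adjusted p = 0.00594), Mmp14 (2.85, adjusted p = 0.00292), Adamts15 (2.81, adjusted p = 0.0014) and Mmp23 (2.39, adjusted p = 0.00546). Smaller positive differences were found for Timp2 (2.24, adjusted p = 0.00275), Adamts14 (2.20, adjusted p = 0.0215), Adamts4 (1.74, adjusted p = 0.0181), Mmp12 (1.70, adjusted p = 0.0131) and Adamts12 (1.08, adjusted p = 0.00728). For Timp4 (-1.82, adjusted p = 0.00896), Mmp28 (-1.60, adjusted p = 0.0149) and Adamts5 (-1.33, adjusted p = 0.0252) the effect was more negative on HFD. Each difference rests on the 2 WT HFD libraries, and of the 13 genes Mmp2, Mmp11, Mmp14, Mmp23, Adamts15 and Timp2 were called with these libraries averaged to 1 sample. The fibroblast and progenitor markers had 7 of 10, the macrophage markers 10 of 12 and the endothelial markers 7 of 8 called in the same positive direction, and 8 of 10 adipocyte markers in the negative one, and their part in these differences was not tested. Groups of 2 libraries are too small for a test of single outlying libraries.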

How the results depend on the processing

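Of the 58 calls of a gene in a comparison, 30 held under every alternative with all libraries and 26 of these also in each of the 8 fits without 1 library, and 0 changed direction. Averaging the WT HFD libraries into 1 sample ended 24 calls, using no filter on low values 21, fitting only the groups compared 8, and scaling to the same total 6. Between Ad-Yap/Taz-KO and WT on HFD, 16 to 23 members were called under the alternatives (16.5% to 41.9% of all tested genes) and 15 to 21 without 1 library (19.3% to 34.0%). On NC, 3 were called in place of 6 with no filter on low values, and 3 to 6 without 1 library, the lowest without WT NC library 2. Between the diets in WT, 9 in place of 15 were called with no filter and 5 with the WT HFD libraries averaged, and 4 to 16 without 1 library (4 without WT NC library 1, 6 and 8 without WT HFD library 2 and 1). Between the diets in Ad-Yap/Taz-KO, 1 in place of 3 was called with a pseudocount of 0.1, at the same total and with the WT HFD libraries averaged, and 0 to 5 without 1 library (5 without Ad-Yap/Taz-KO HFD library 1, beside 3.93% of all genes, and 0 without Ad-Yap/Taz-KO NC library 2, beside 0.0745%, where 8 had an unadjusted p below 0.05). For the same comparison limma called 0 with no filter and 0 when only the groups compared were fitted, with 13 and 9 at an unadjusted p below 0.05. The interaction had 7 calls with no filter and 6 with the WT HFD libraries averaged, in place of 13, and 7 to 15 without 1 library (8 without WT NC library 1, beside 2.82% of all genes, 8 without Ad-Yap/Taz-KO NC library 2, beside 7.47%, and 7 without WT HFD library 2, beside 4.03%). Fitting more genes at low values, or fewer samples, is part of these alternatives, and no other cause was tested. The share of all tested genes called moved with most of these counts. With no filter it was 1.44% in place of 4.71% on NC, 5.60% in place of 18.0% between the diets in WT, 0.00987% in place of 1.07% in Ad-Yap/Taz-KO and 2.37% in place of 17.4% in the interaction, and without WT NC library 2 it was 2.03% on NC. With the WT HFD libraries averaged it was 2.87% between the diets in WT, 0.149% in Ad-Yap/Taz-KO and 2.75% in the interaction. At the same total, 1.25% of all genes were called between the diets in Ad-Yap/Taz-KO, beside 1 member in place of 3.

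On HFD, leaving out 1 library ended the call of Timp1 (without Ad-Yap/Taz-KO HFD library 2), Mmp13 and Mmp28 (without WT HFD library 2 or Ad-Yap/Taz-KO HFD library 2), Mmp3 (without WT HFD library 2 or Ad-Yap/Taz-KO HFD library 1) and Adamts7 (without WT HFD library 1 or Ad-Yap/Taz-KO HFD library 2), and those of Mmp17 and Adamts18 in most such fits. On NC it ended those of Adamts10 and Timp4 (without WT NC library 2), of Mmp13 (without WT NC library 1 or either Ad-Yap/Taz-KO library) and of Timp1 (without either WT library or Ad-Yap/Taz-KO NC library 1).

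Scaling to the same total shifted the median of all genes by 0.38 on HFD, by -0.41 between the diets in WT and by 0.43 in the interaction, and quantile normalization by -0.23, 0.15 and -0.20. At the same total, 2 members rose and 17 fell with HFD in WT, against 4 and 11, and with quantile normalization 3 rose and 1 fell in Ad-Yap/Taz-KO, against 3 and 0.

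The labels number the libraries of each group 1 and 2 and say nothing of a shared litter or day, and the differences between library 1 and 2 correlated at 0.11 between the NC genotypes, at -0.30 between the knockout diets and between -0.10 and 0.03 elsewhere. The labels give no pairing, and crossed numbers may be present between the knockout diets. The adipocyte marker sums also ran opposite ways in library 1 and 2 of the knockout groups (169777 and 245934 on NC, 190080 and 95513 on HFD). What lies behind the correlation was not tested. With the replicate block, 20 members were called on HFD (30.4% of all genes), 5 on NC (3.83%), 15 between the diets in WT (15.6%), 2 in Ad-Yap/Taz-KO (0.596%) and 13 in the interaction (13.7%). The block ended the calls of Adamts18 on HFD, Timp1 on NC and Timp2 between the diets in Ad-Yap/Taz-KO, and no other call of a member. With the crossed replicate block, chosen after seeing the data, 5 members and 700 genes were called between the diets in Ad-Yap/Taz-KO, in place of 3 and 202. For a gene listed at 0, a count of 0 allows up to 3 reads, which limits what can be detected for the weakest genes.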
